A study of Mus musculus with 32 samples.

Results

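The 10 genes described here are Tnfaip3, Tnip1, Tnip3, Zc3h12a, Zc3h12c, Zfp36, Zfp36l1, Zfp36l2, Rc3h1 and Dusp1, which encode inhibitors of inflammatory signalling and proteins that destabilise mRNA. They were matched by symbol to the gene identifiers of the count files, and all 10 were found among the 41388 genes counted. RNA was sequenced from primary chondrocytes isolated from the sterna and ribs of newborn mice and not passaged, in 32 libraries with 2 libraries in each of 16 conditions. The paper states a C57BL/6 background for the wild-type and LDHA flox mice and none for the NFKBIZ flox mice, and it does not describe the NAMPT flox mice. Wild-type (WT) cells received no virus and were left untreated or received FX11 (40 µM), IL-1β (10 ng/mL), or both, for 24 h. Cells of 3 floxed lines (LDHA flox, NAMPT flox and NFKBIZ flox) carried Ldha, Nampt or Nfkbiz flanked by loxP sites and were infected with adenovirus expressing eGFP (GFP) or Cre and eGFP (Cre) for 24 h, each followed by 24 h with or without IL-1β. IL-1β is an inflammatory cytokine that activates NF-κB and MAP kinases, and FX11 is a small-molecule inhibitor of lactate dehydrogenase A. No non-floxed cells received Cre virus, so a deletion and the Cre virus itself cannot be told apart, and the labels do not say how many animals were pooled for a culture or whether the 2 libraries of a condition came from separate cultures. The p-values below therefore measure the spread between libraries, which may be technical.

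IL-1β signalling induces its own inhibitors. Tnfaip3 encodes A20, a ubiquitin-editing enzyme that dampens signalling to NF-κB, and Tnip1 and Tnip3 encode the A20-binding proteins ABIN1 and ABIN3. Zc3h12a and Zc3h12c encode Regnase-1 and Regnase-3, RNases that cleave inflammatory transcripts at stem-loops, and Rc3h1 encodes Roquin-1, which binds such stem-loops and recruits deadenylation factors. Zfp36, Zfp36l1 and Zfp36l2 encode tristetraprolin (TTP) and its relatives, which bind AU-rich elements and recruit deadenylases. Dusp1 encodes a phosphatase that inactivates p38 and JNK. NF-κB controls catabolic genes in chondrocytes, and Nfkbiz encodes IκBζ, a nuclear cofactor needed for a subset of NF-κB targets.

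Promoter sequences were examined because several of these genes responded to IL-1β together. The RefSeq promoter table (GRCm38.p6, 250 bases before to 50 after each start site) held 11 windows for 9 of the 10 genes, and not for Zfp36l2. The 4 windows printed are those of the genes whose responses are described in most detail, each limited to the 250 bases before the start site and written 5′ to 3′ on the strand of the gene. Capitals mark matches on either strand to the NF-κB consensus, the AP-1 motif TGANTCA, the cAMP response element TGACGTCA and TATAAA.
Tnfaip3, chr10:19015411-19015660, minus strand: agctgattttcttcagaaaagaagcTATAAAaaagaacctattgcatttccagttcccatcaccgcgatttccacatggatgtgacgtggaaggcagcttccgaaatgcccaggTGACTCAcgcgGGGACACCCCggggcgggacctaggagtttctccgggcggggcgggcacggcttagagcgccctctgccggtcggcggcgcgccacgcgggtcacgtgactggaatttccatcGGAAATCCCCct
Tnip1, chr11:54962941-54963190, minus strand: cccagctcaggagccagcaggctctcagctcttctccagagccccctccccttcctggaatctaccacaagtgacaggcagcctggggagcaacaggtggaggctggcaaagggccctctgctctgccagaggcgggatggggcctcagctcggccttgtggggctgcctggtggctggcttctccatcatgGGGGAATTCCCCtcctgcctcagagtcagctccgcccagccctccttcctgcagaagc
Zc3h12a, chr4:125127882-125128131, minus strand: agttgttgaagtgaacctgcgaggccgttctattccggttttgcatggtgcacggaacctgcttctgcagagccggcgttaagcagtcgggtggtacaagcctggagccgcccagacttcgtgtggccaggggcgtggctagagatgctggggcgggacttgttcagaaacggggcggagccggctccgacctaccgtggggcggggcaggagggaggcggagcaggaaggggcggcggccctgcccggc
Dusp1, chr17:26508473-26508722, minus strand: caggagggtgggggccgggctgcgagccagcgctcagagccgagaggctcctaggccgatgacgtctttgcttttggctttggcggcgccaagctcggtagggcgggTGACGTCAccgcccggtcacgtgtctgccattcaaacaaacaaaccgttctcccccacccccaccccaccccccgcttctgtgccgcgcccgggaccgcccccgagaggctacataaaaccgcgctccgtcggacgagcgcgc
In Tnfaip3, NF-κB consensus matches lay at -125 to -116 and at -12 to -3 from the start site, with TGACTCA at -136 to -130 and TATAAA at -225 to -220. In Tnip1, 3 overlapping matches to the NF-κB consensus fell within -58 to -47, in Tnip3 there was 1 match at -54 to -45, and in Zc3h12c 1 at -236 to -227. TGANTCA was also found in Zfp36l1 at -129 to -123 and in Rc3h1 at -133 to -127, and TATAAA in Tnip3 at -120 to -115 and in Zfp36l1 at -29 to -24, on either strand. The Dusp1 window held TGACGTCA at -143 to -136, and the Zc3h12a and Zfp36 windows and the second windows of Tnfaip3 and Zc3h12c held none of the 4 motifs. Over all 32851 promoters of the table, 8.46% held the NF-κB consensus, 7.81% TGANTCA, 1.79% TGACGTCA and 13.6% TATAAA. A match is a description of letters and not of binding, and these windows do not cover enhancers.

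Because TTP proteins bind AU-rich elements, the heptamer TATTTAT was counted in the longest annotated 3′ UTR of each gene (GENCODE M21). It occurred 3 times each in Zfp36, Zfp36l1, Zfp36l2 and Dusp1, and 2 times each in Tnfaip3, Zc3h12c and Rc3h1. Tnip3 held 1 copy, and Tnip1 and Zc3h12a held 0. Among 21004 genes with a 3′ UTR, 27.5% held at least 1 copy, 10.3% at least 2 and 4.11% at least 3. Their median 3′ UTR was 953 bases, while those of the 10 genes ran from 690 to 7181 bases. The shares were not matched for length. Per 1000 bases of 3′ UTR, Dusp1 (4.35 copies) and Zfp36 (3.88 copies) had the densest sites of the 10 genes, while Rc3h1 spread its copies over a 3′ UTR of 7181 bases (0.279 copies).

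The libraries summed to between 15830658 and 39959888 counts. Levels are given as CPM, counts scaled to library size, with TMM factors over all 32 libraries. The targeted genes followed the Cre labels. Under IL-1β, Ldha was at 1547 and 1557 CPM with GFP and at 72.9 and 81.3 CPM with Cre in LDHA flox cells, Nampt was at 67.4 and 68.4 CPM with GFP and at 4.63 and 5.70 CPM with Cre in NAMPT flox cells, and Nfkbiz was at 229 and 235 CPM with GFP and at 29.5 and 32.3 CPM with Cre in NFKBIZ flox cells. Nfkbiz was also lower with Cre in the other lines under IL-1β, at 66.9 and 69.7 CPM against 164 and 177 CPM in LDHA flox cells and at 60.8 and 67.7 CPM against 202 and 204 CPM in NAMPT flox cells. The 9 chondrocyte markers summed to between 13923 and 88593 CPM in the 32 libraries, and the 7 macrophage and leukocyte markers to between 13.8 and 65.9 CPM in floxed cells and between 94.7 and 264 CPM in WT cells. The sample titles are written in 2 styles, here called set 1 and set 2, with 1 library of each in every condition except in NFKBIZ flox cells, where both came from set 2. The labels do not say what the sets are. In WT cells of set 2, labels and values disagreed. The library labelled FX11 had 2016 CPM of Mmp3, which encodes an IL-1β-induced matrix metalloproteinase. The one labelled IL-1β had 0.784 CPM, close to the 0.808 CPM of the untreated library of that set.

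The response of the feedback genes to IL-1β was measured first in the 12 GFP libraries of the 3 floxed lines, 6 untreated and 6 with IL-1β. Of the 10 genes, 8 rose and none fell, with a median log2 fold change of 0.88 over the 10 against -0.01 over all genes tested. Tnip3, 1 of the 8, passed the filter on low counts only through libraries with IL-1β, so its rise is a description. The background was high, since 56.2% of the 14283 genes tested passed an adjusted p of 0.05 or less in either direction (edgeR's quasi-likelihood test with Benjamini-Hochberg adjustment, line and library set as covariates). The standard errors (SE) given with log2 fold changes were derived from the F statistic of this test.

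Zc3h12a had the largest rise after Tnip3. It was at 3.73 CPM in the lowest, 4.08 in the median and 5.00 in the highest untreated library, and at 65.8, 69.5 and 114 CPM with IL-1β, so that the groups were far apart. Its log2 fold change was 4.27 (SE 0.11, adjusted p = 7.26e-15), a rise of the mean by 19.7-fold. The other Regnase, Zc3h12c, ranged from 15.0 to 18.6 CPM (median 16.9) untreated and from 15.2 to 20.2 CPM (median 18.9) with IL-1β. These ranges overlapped, and the log2 fold change of 0.13 (SE 0.08) did not pass the test (adjusted p = 0.179). Without 1 NFKBIZ flox library with IL-1β, which had the lowest value, it passed with a log2 fold change of 0.19 (adjusted p = 0.0290).

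Among the A20 genes, Tnfaip3 ranged from 1.82 to 3.26 CPM (median 2.88) untreated and from 10.9 to 17.4 CPM (median 12.5) with IL-1β, and its log2 fold change was 2.30 (SE 0.12, adjusted p = 4.77e-11). Tnip1 ranged from 31.4 to 38.3 CPM (median 35.3) untreated and from 53.5 to 74.4 CPM (median 57.3) with IL-1β, and its log2 fold change was 0.80 (SE 0.07, adjusted p = 2.71e-08). Neither pair of ranges overlapped. Tnip3 was hardly detected without IL-1β, at 0 to 4 counts per library, and had 16 to 70 counts per library with IL-1β (0.881 to 1.87 CPM). Its fitted log2 fold change of 5.06 (adjusted p = 1.49e-07) rests on those few untreated counts. Because the filter admitted Tnip3 only through libraries with IL-1β, this p-value is no test of its rise. In NAMPT flox cells, where both untreated GFP libraries had 0 counts, Tnip3 was at least 18.0-fold higher with IL-1β, taking 3 counts over the untreated group as the floor.

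Of the TTP family, Zfp36 ranged from 17.2 to 28.9 CPM (median 24.8) untreated and from 39.8 to 47.5 CPM (median 45.4) with IL-1β, giving a log2 fold change of 0.96 (SE 0.07, adjusted p = 1.08e-08). Zfp36l1 ranged from 30.7 to 65.5 CPM (median 48.8) untreated and from 81.7 to 116 CPM (median 103) with IL-1β, giving a log2 fold change of 1.12 (SE 0.13, adjusted p = 2.03e-06). Both genes were higher in every IL-1β library than in any untreated one. Zfp36l1 overlaps a lincRNA on the opposite strand, Gm26669, which reached at most 1.22 CPM. Zfp36l2 ranged from 159 to 263 CPM (median 241) untreated and from 153 to 278 CPM (median 254) with IL-1β, and its log2 fold change of 0.04 (SE 0.05) did not pass the test (adjusted p = 0.538). Its spread followed the line, as the 4 lowest libraries of the 12 were those of NFKBIZ flox cells. Smaller rises without overlap were measured for Rc3h1, from a median of 69.1 to 87.8 CPM (log2 fold change 0.33, SE 0.04, adjusted p = 8.94e-06), and for Dusp1, from a median of 159 to 231 CPM (log2 fold change 0.53, SE 0.05, adjusted p = 2.88e-08).

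IL-1β changed the order of the genes by level. Per kilobase of exon, Zfp36l2 (62.8 ± 12.7 CPM per kb, SD, n = 6) and Dusp1 (58.6 ± 5.60) stood at the top in untreated cells with overlapping ranges, followed by Zfp36l1 (15.7 ± 4.26), Zfp36 (13.1 ± 2.84) and Tnip1 (9.91 ± 0.712), whose neighbouring ranges also overlapped. Rc3h1 (6.22 ± 0.227), Zc3h12c (2.78 ± 0.213), Zc3h12a (1.45 ± 0.174), Tnfaip3 (0.381 ± 0.0688) and Tnip3 (0.0107 ± 0.0180) followed with no overlap between neighbours. With IL-1β, Zc3h12a moved from the 8th to the 4th place at 28.6 ± 7.86 CPM per kb (SD, n = 6), in overlap with Zfp36l1 (33.5 ± 4.63) and Zfp36 (25.0 ± 1.82). Tnfaip3 stayed in the 9th place at 1.88 ± 0.389 CPM per kb in spite of its rise. Over the same 12 libraries the summed macrophage and leukocyte markers ranged from 13.8 to 25.4 CPM untreated and from 32.2 to 65.9 CPM with IL-1β, with 4 of the 5 tested higher and none of the 7 markers at 0 in either group, and the part of such cells in these levels was not tested. The 9 chondrocyte markers all fell with IL-1β, from a sum of 66822 to 85461 CPM untreated to 25045 to 29979 CPM (median log2 fold change -1.42), as did the 4 osteoblast markers, while 2 fibroblast markers rose and 3 of the 6 fell, and their part was not tested either. In bulk RNA, more cells of a type and more RNA per cell cannot be told apart.

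**Figure D1:**
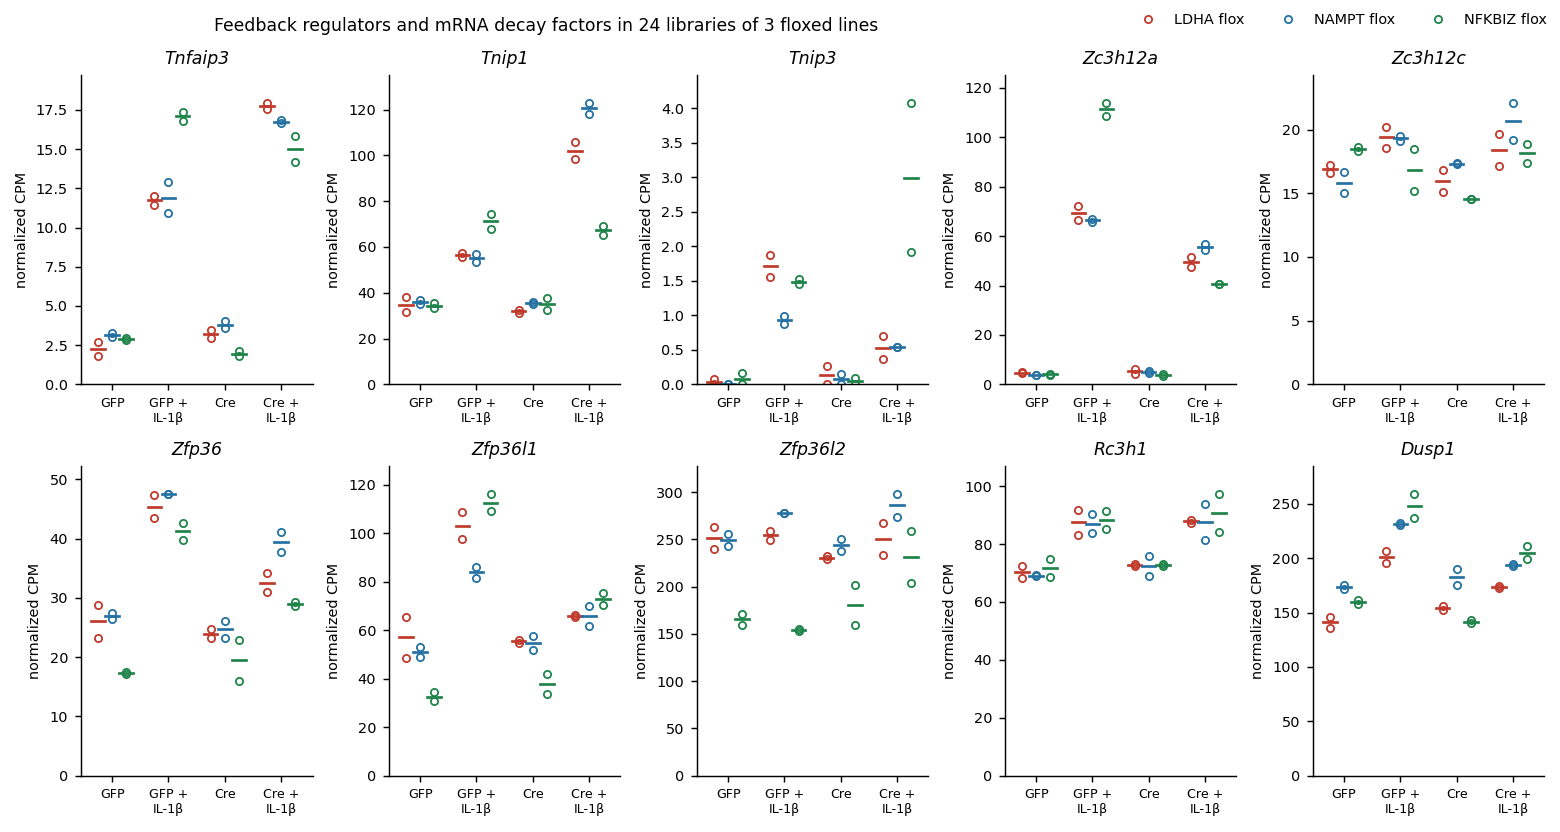
TMM-scaled CPM (vertical axis, from 0) of the 10 genes in the 24 libraries of the floxed lines by virus and IL-1β (horizontal axis), with 1 open point per library and a bar at the mean of 2. Zc3h12a lies at or under 6.11 CPM in every library without IL-1β and at 40.5 CPM or more in every library with it, and Tnip1 with IL-1β is higher with Cre than with GFP in LDHA flox and NAMPT flox but not in NFKBIZ flox cells.

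Within single lines the same test was made on 2 libraries against 2. With GFP virus, IL-1β raised 8 of the 10 genes in LDHA flox cells (27.9% of 15880 genes passed in either direction), 9 in NAMPT flox cells (35.0% of 16136) and 8 in NFKBIZ flox cells (26.8% of 15356). Tnip3 is in each of these counts, and in every floxed line it passed the filter only through libraries with IL-1β. The gene added in NAMPT flox cells was Zfp36l2, at 243 and 255 CPM untreated and 278 CPM in both libraries with IL-1β (log2 fold change 0.18, SE 0.06, adjusted p = 0.0448), a call that ended with no expression filter and without any of 6 single libraries. After Cre, IL-1β raised 6 genes in LDHA flox cells (35.9% of genes passed), 9 in NAMPT flox cells (43.9%) and 8 in NFKBIZ flox cells (22.1%), and lowered none. The call of Rc3h1 ended without 1 library with GFP and either of 2 with Cre in LDHA flox and in NAMPT flox cells, and in NFKBIZ flox cells without any of 4 with GFP and any of 6, and with voom, with Cre. After Cre, the call of Zfp36 ended without either of 2 libraries in LDHA flox and 1 in NFKBIZ flox cells, that of Zfp36l1 without either of 2 in NAMPT flox cells, and the call of Dusp1 in LDHA flox cells (0.20, SE 0.07, adjusted p = 0.0439) was lost in 9 of 13 alternative analyses. That of Tnip3 in NAMPT flox cells ended without any of 3 single libraries, and that of Zc3h12c there (0.31, SE 0.11, adjusted p = 0.0376) without any of 5, with no filter and with DESeq2. Conversely, after Cre, Zfp36l1 in LDHA flox cells (0.28, SE 0.12, adjusted p = 0.100) gained the call in 4 of 13 alternative analyses. Zfp36l2 in NFKBIZ flox cells (0.36, SE 0.13, adjusted p = 0.0677) also gained it in 4 of 13. Tnip3 in LDHA flox and Dusp1 in NAMPT flox cells gained it in 1 each. Zc3h12a and Tnfaip3 rose with IL-1β under both viruses in all 3 lines, Zc3h12a by log2 fold changes of 3.88 to 4.80 with GFP and 3.30 to 3.54 with Cre, and Tnfaip3 by 1.97 to 2.58 with GFP and 2.19 to 2.95 with Cre.

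**Figure D2:**
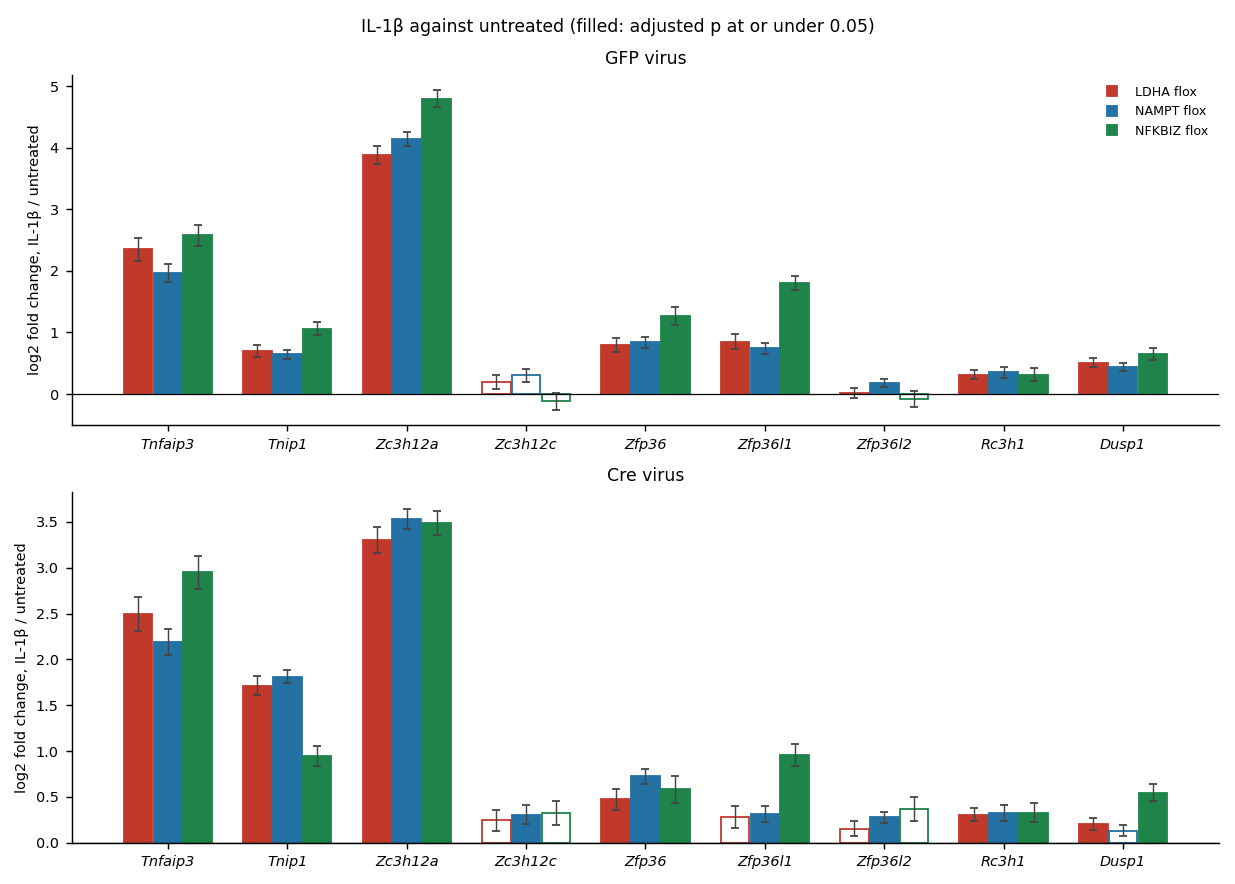
Log2 fold change of IL-1β against untreated (vertical axis) for 9 of the genes (horizontal axis) in each floxed line, with GFP virus above and Cre virus below. Bars show edgeR estimates with SE, 2 libraries against 2, and are filled where the adjusted p was 0.05 or less. Zc3h12a has the tallest bars in both panels (3.30 to 4.80), and Tnip1 is taller with Cre (1.71 and 1.81) than with GFP (0.69 and 0.64) in LDHA flox and NAMPT flox cells. Tnip3 is left out because its untreated counts are at or near 0.

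Cre against GFP was compared next, to ask whether the genes depend on Ldha, Nampt or Nfkbiz. Without IL-1β, edgeR called none of the 10 genes in any line, and neither did DESeq2 or limma's voom with quality weights. At an unadjusted p under 0.05, edgeR gave 1 gene in LDHA flox cells (Tnfaip3), 1 in NAMPT flox cells (Zc3h12a) and 2 in NFKBIZ flox cells (Tnfaip3 and Zc3h12c). The shares of all genes called were 5.52% in LDHA flox, 14.4% in NAMPT flox and 0.26% in NFKBIZ flox cells. With IL-1β, Cre changed 5 of the 10 genes in LDHA flox cells, where 34.0% of all genes passed, 6 in NAMPT flox cells, where 48.4% passed, and 5 in NFKBIZ flox cells, where 17.4% passed. The counts in LDHA flox and NAMPT flox cells were not far from these backgrounds.

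Tnip1 responded to Cre differently by line. With IL-1β it was at 55.8 and 57.4 CPM with GFP and at 98.6 and 106 CPM with Cre in LDHA flox cells, a log2 fold change of 0.87 (SE 0.10, adjusted p = 9.83e-05). In NAMPT flox cells it was at 57.1 and 53.5 CPM with GFP and at 118 and 123 CPM with Cre, a log2 fold change of 1.14 (SE 0.07, adjusted p = 2.71e-07). In NFKBIZ flox cells it was at 74.4 and 68.1 CPM with GFP and at 65.2 and 69.3 CPM with Cre, with overlapping values and a log2 fold change of -0.10 (SE 0.11, adjusted p = 0.573). Without IL-1β all 12 libraries of the 3 lines lay between 31.3 and 38.3 CPM, whichever virus they received. Tnip1 overlaps a processed pseudogene on the opposite strand, Gm12230, which reached at most 0.582 CPM in any library.

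Tnfaip3 followed a like order at lower levels. In LDHA flox cells with IL-1β it was at 11.4 and 12.0 CPM with GFP and at 18.0 and 17.6 CPM with Cre (log2 fold change 0.62, SE 0.17, adjusted p = 0.0175), a call that ended without any 1 of these 4 libraries (adjusted p up to 0.112). In NAMPT flox cells it was at 12.9 and 10.9 CPM with GFP and at 16.8 and 16.6 CPM with Cre (log2 fold change 0.50, SE 0.13, adjusted p = 0.0101), a call that ended without the GFP library of set 2 or the Cre library of set 1. In NFKBIZ flox cells it was at 17.4 and 16.8 CPM with GFP and at 15.8 and 14.2 CPM with Cre (log2 fold change -0.21, SE 0.15, adjusted p = 0.385). Tnip3 stayed low under IL-1β in every arm. With GFP and Cre, respectively, it was at 1.87 and 1.55 against 0.364 and 0.703 CPM in LDHA flox cells, at 0.881 and 0.988 against 0.535 and 0.542 CPM in NAMPT flox cells, and at 1.45 and 1.52 against 4.08 and 1.91 CPM in NFKBIZ flox cells. None of these differences passed edgeR's test (adjusted p = 0.106, 0.400 and 0.245). In LDHA flox cells the log2 fold change was -1.70 (SE 0.74, unadjusted p = 0.0455 by edgeR), and voom called 7 of the 10 genes there against 5 by edgeR. Tnip3 passed the filter in that line only through GFP libraries with IL-1β.

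The Regnase-1 gene Zc3h12a fell with Cre in all 3 lines under IL-1β. The difference was widest in NFKBIZ flox cells, where it was at 114 and 109 CPM with GFP and at 40.5 and 40.7 CPM with Cre, a log2 fold change of -1.47 (SE 0.11, adjusted p = 1.21e-06). It had 72.0 and 66.5 CPM with GFP and 47.5 and 51.4 CPM with Cre in LDHA flox cells (log2 fold change -0.46, SE 0.12, adjusted p = 0.0150), and this call ended without the GFP or the Cre library of set 1. In NAMPT flox cells it was at 67.1 and 65.8 CPM with GFP and at 54.4 and 56.8 CPM with Cre (log2 fold change -0.24, SE 0.09, adjusted p = 0.0488), and this call ended with DESeq2, with no expression filter and without any of 5 single libraries. Zc3h12c lay between 15.2 and 22.1 CPM in the 12 libraries with IL-1β and did not pass the test in any line.

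Zfp36l1 and Zfp36 also fell with Cre in all 3 lines. Zfp36l1 with IL-1β was at 109 and 97.4 CPM with GFP and at 65.3 and 66.1 CPM with Cre in LDHA flox cells (log2 fold change -0.63, SE 0.12, adjusted p = 0.00297), at 81.7 and 86.1 CPM against 61.6 and 69.9 CPM in NAMPT flox cells (-0.34, SE 0.09, adjusted p = 0.00790), and at 116 and 109 CPM against 70.4 and 75.3 CPM in NFKBIZ flox cells (-0.64, SE 0.12, adjusted p = 0.00205). The call in NAMPT flox cells ended without the GFP library of set 2 (adjusted p = 0.0552). Zfp36 was at 47.4 and 43.4 CPM with GFP and at 30.9 and 34.1 CPM with Cre in LDHA flox cells (log2 fold change -0.46, SE 0.11, adjusted p = 0.00991). It was at 47.5 CPM in both GFP libraries and at 37.7 and 41.1 CPM with Cre in NAMPT flox cells (-0.25, SE 0.08, adjusted p = 0.0281), and at 42.7 and 39.8 CPM with GFP and 29.3 and 28.6 CPM with Cre in NFKBIZ flox cells (-0.53, SE 0.14, adjusted p = 0.0232). For each of these pairs of groups the values did not overlap. The Zfp36 calls ended without 2 single libraries in LDHA flox, 3 in NAMPT flox and 3 in NFKBIZ flox cells, and in NAMPT flox cells also with DESeq2 and with no filter.

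Zfp36l2 differed from its relatives. In NFKBIZ flox cells with IL-1β it was at 155 and 153 CPM with GFP and rose to 204 and 259 CPM with Cre (log2 fold change 0.57, SE 0.13, adjusted p = 0.0103), a call that ended without any of 3 single libraries. In LDHA flox cells it was at 259 and 249.5 CPM with GFP and at 233 and 267 CPM with Cre, and in NAMPT flox cells at 278 CPM in both GFP libraries and at 274 and 298 CPM with Cre, with no call in either. The Roquin-1 gene Rc3h1 lay between 81.5 and 97.3 CPM in all 12 libraries with IL-1β and passed the test for Cre in no line. Dusp1 was at 230.2 and 233 CPM with GFP and at 192 and 195 CPM with Cre in NAMPT flox cells (log2 fold change -0.24, SE 0.06, adjusted p = 0.00736), and at 237 and 259 CPM with GFP and at 211 and 199 CPM with Cre in NFKBIZ flox cells (-0.29, SE 0.09, adjusted p = 0.0465). The latter call was lost in 10 of 13 alternative analyses. In LDHA flox cells Dusp1 was at 207 and 196 CPM with GFP and at 174 and 172 CPM with Cre, which missed the threshold (log2 fold change -0.20, SE 0.07, adjusted p = 0.0533) but passed it with voom (adjusted p = 0.0288) and without either untreated GFP library.

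**Figure D3:**
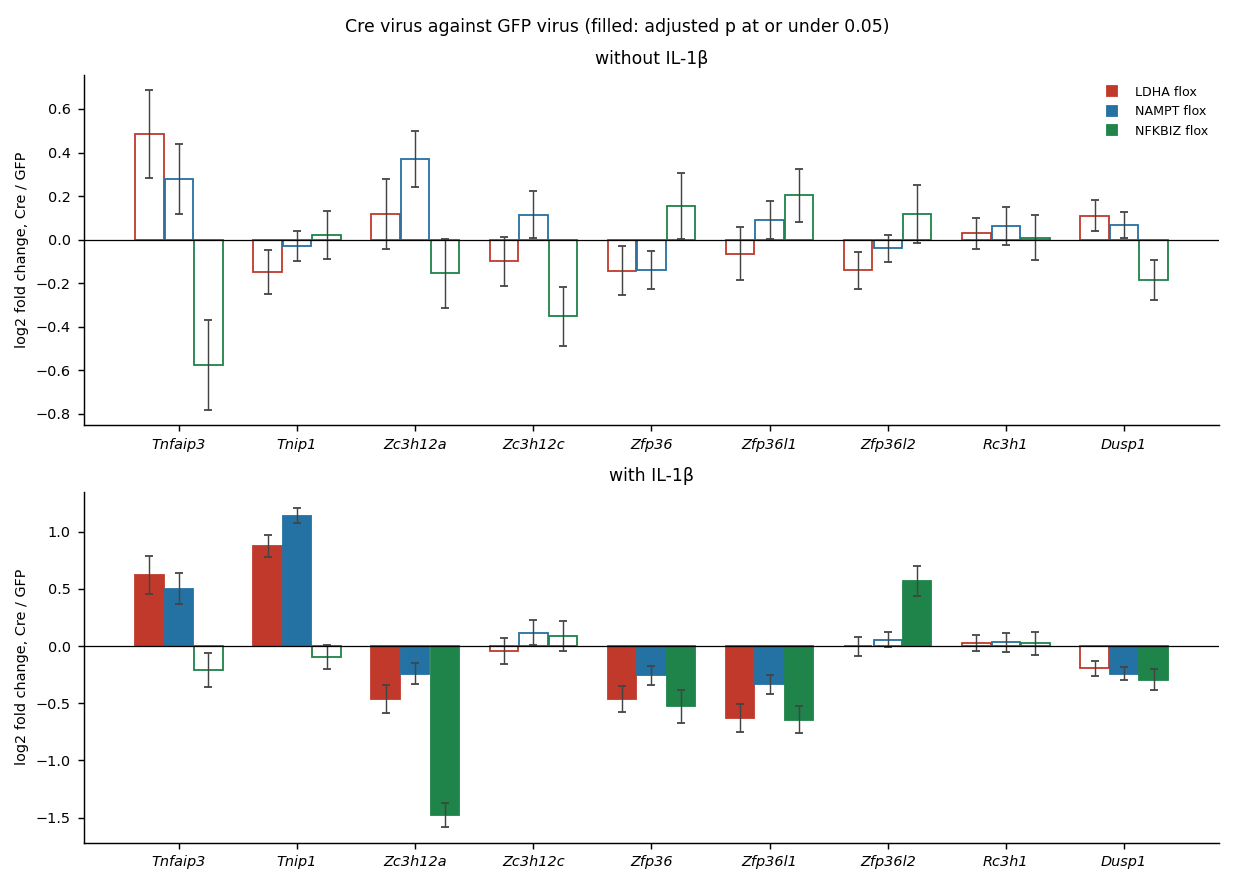
Log2 fold change of Cre against GFP virus (vertical axis) for 9 genes (horizontal axis) without IL-1β (above) and with IL-1β (below) in each floxed line; the panels have different vertical scales. Bars show edgeR estimates with SE, 2 libraries against 2, and are filled where the adjusted p was 0.05 or less. No bar is filled without IL-1β, and with IL-1β Tnip1 and Tnfaip3 are filled upward in LDHA flox and NAMPT flox cells while Zc3h12a, Zfp36 and Zfp36l1 are filled downward in every line.

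Whether Cre changed the response to IL-1β itself was tested as an interaction. It was called for 1 gene in LDHA flox cells (11.5% of all genes), 4 in NAMPT flox cells (22.0%) and 2 in NFKBIZ flox cells (5.19%). The interaction of Tnip1 was positive in LDHA flox cells (log2 difference 1.02, SE 0.14, adjusted p = 0.00144) and in NAMPT flox cells (1.17, SE 0.10, adjusted p = 2.35e-05), so IL-1β raised it by a log2 fold change of 1.71 and 1.81 after Cre against 0.69 and 0.64 with GFP. In NFKBIZ flox cells the interaction of Tnip1 was -0.12 (SE 0.15, adjusted p = 0.749). Zc3h12a had a negative interaction in NFKBIZ flox cells (-1.32, SE 0.19, adjusted p = 0.00115) and in NAMPT flox cells (-0.61, SE 0.16, adjusted p = 0.0191), and that in LDHA flox cells (-0.58, SE 0.20) did not pass (adjusted p = 0.100). Zfp36l1 likewise passed in NFKBIZ flox cells (-0.85, SE 0.17, adjusted p = 0.0108) and in NAMPT flox cells (-0.43, SE 0.12, adjusted p = 0.0295) but not in LDHA flox cells (-0.56, SE 0.17, adjusted p = 0.0642). Dusp1 passed in NAMPT flox cells (-0.31, SE 0.09, adjusted p = 0.0268) and missed the threshold in LDHA flox cells (-0.31, SE 0.10, adjusted p = 0.0769) and in NFKBIZ flox cells (-0.11, SE 0.13, adjusted p = 0.741). The difference between lines was not tested for the interaction. In NAMPT flox cells the call of Zc3h12a ended with voom and without either of 2 single libraries, that of Zfp36l1 without any of 4, and that of Dusp1 with no filter and without any of 5. The call of Zfp36l1 in NFKBIZ flox cells ended without either of 2 libraries. Conversely, in LDHA flox cells Zc3h12a passed without the untreated Cre library of set 1 and with no filter, and Zfp36l1 passed without the untreated GFP library of set 1, with no filter, with DESeq2 and with voom.

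The Cre effect under IL-1β was then compared between lines over 24 libraries. Between NFKBIZ flox cells and the mean of the other lines it differed for 4 of the 10 genes by edgeR, where 33.1% of 16727 genes passed. DESeq2 and voom each called 5 of the 10. The scarce Tnip3 had the largest difference, 2.27 (SE 0.87), which did not pass with edgeR (adjusted p = 0.0528). The Cre effect in NFKBIZ flox cells was lower by log2 differences of -1.06 for Tnip1 (SE 0.11, adjusted p = 2.76e-07), -1.08 for Zc3h12a (SE 0.14, adjusted p = 3.67e-06) and -0.73 for Tnfaip3 (SE 0.17, adjusted p = 0.00264), and higher by 0.58 for Zfp36l2 (SE 0.13, adjusted p = 0.00202). For Zfp36, Zfp36l1 and Dusp1 the effects in NFKBIZ flox cells were not distinguished from those in the other lines (adjusted p = 0.578, 0.572 and 0.809). Between LDHA flox and NAMPT flox cells, edgeR called none of the 10 genes, with 0 at an unadjusted p under 0.05 and 0 by DESeq2 or voom, where 0.138% of all genes passed. All NFKBIZ flox libraries came from set 2, which also holds 1 library per condition of the other lines. Over the 16 libraries of set 2 alone the differences were -1.14 for Tnip1 (SE 0.15, adjusted p = 0.000173), -1.18 for Zc3h12a (SE 0.15, adjusted p = 0.000135) and -0.78 for Tnfaip3 (SE 0.21, adjusted p = 0.0216). That of Zfp36l2 was 0.48 (SE 0.19) and no longer passed (adjusted p = 0.0977). In that fit the single libraries of LDHA flox and NAMPT flox cells are assumed to vary like those of NFKBIZ flox cells. Markers of fibroblasts moved with Cre under IL-1β as well. All 6 fell in LDHA flox cells (median log2 fold change -0.63), from a sum of 4381 and 4547 CPM to 2700 and 2734 CPM, and in NAMPT flox cells (median -0.78), from 3862 and 3911 CPM to 2315 and 2343 CPM. In NFKBIZ flox cells 2 of 6 fell, with sums of 999.8 and 1044 CPM against 881 and 944 CPM. Their part in the differences above was not tested. The 4 endothelial markers summed to between 4.73 and 7.37 CPM with GFP and IL-1β in LDHA flox and NAMPT flox cells. With Cre and IL-1β they summed to between 16.8 and 26.3 CPM there. In NFKBIZ flox cells the sums were 3.26 and 4.31 CPM with GFP and 6.70 and 7.74 CPM with Cre. Of the single markers, 1 was called higher in LDHA flox cells, 2 higher and 1 lower in NAMPT flox cells, and none in NFKBIZ flox cells. The part of endothelial cells was not tested.

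In WT cells the disagreement of 2 labels with the values decides what can be compared. The library of set 2 labelled FX11 had 126 CPM of Zc3h12a, 20.6 CPM of Tnfaip3 and 193 CPM of Zfp36l1, whereas the one labelled IL-1β had 5.04, 4.44 and 47.1 CPM of these genes. In set 1 the order was the reverse, with Zc3h12a at 6.48 CPM, Tnfaip3 at 2.72 CPM and Zfp36l1 at 42.8 CPM in the FX11 library. The IL-1β library had 171, 33.3 and 272 CPM. With the labels as given, edgeR called 0 of the 10 genes and 0.0% of 15461 genes for IL-1β against untreated, FX11 against untreated, and IL-1β plus FX11 against IL-1β. None of the 10 genes reached an unadjusted p under 0.05 in these comparisons, and DESeq2 and voom called none of them either. Without the libraries of set 2 labelled FX11 and IL-1β, edgeR still called none of the 10 genes.

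IL-1β plus FX11 against untreated used libraries whose values did not go against their labels, but its spread was estimated with the others. Zc3h12a had 5.23 and 5.03 CPM in untreated cells and 156 and 99.4 CPM with both agents (log2 fold change 4.65, SE 1.88, adjusted p = 0.874). Tnfaip3 had 3.34 and 3.93 CPM in untreated cells and 24.7 and 13.9 CPM with both, and Tnip1 43.7 and 42.3 CPM against 117 and 83.4 CPM. Zfp36l1 had 46.6 and 64.9 CPM in untreated cells and 218 and 147 CPM with both agents. For each of these genes the values did not overlap, but edgeR called none of the 10 genes in this comparison (0.0% of all genes), 2 reached an unadjusted p under 0.05 (Zc3h12a and Zc3h12c), and DESeq2 and voom called none. Without the 2 doubted libraries the adjusted p of Zc3h12a was 0.0616, with a log2 fold change of 4.65. Within set 1, where IL-1β can be set beside IL-1β plus FX11, Zc3h12a was at 171 and 156 CPM, Tnfaip3 at 33.3 and 24.7 CPM, Zfp36 at 39.2 and 29.1 CPM and Dusp1 at 154 and 108 CPM, 1 library each and without a test. Dusp1 split by set in WT cells, at 108 to 154 CPM in set 1 and at 35.0 to 63.0 CPM in set 2 whatever the label.

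**Figure D4:**
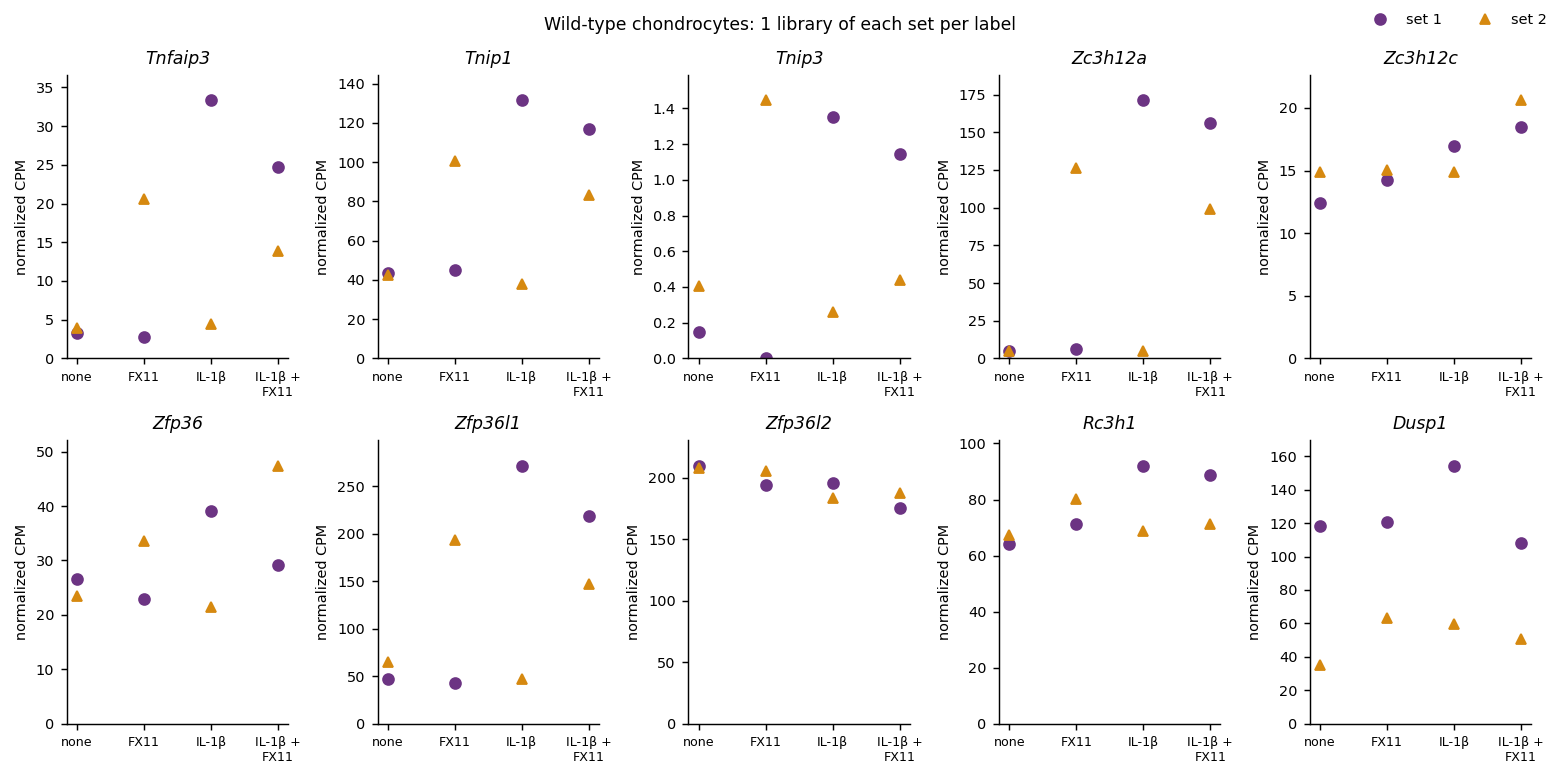
TMM-scaled CPM (vertical axis, from 0) of the 10 genes in the 8 WT libraries by label (horizontal axis), circles for set 1 and triangles for set 2, 1 library each. In set 1 Zc3h12a is high in the libraries labelled IL-1β and IL-1β plus FX11 (171 and 156 CPM), and in set 2 it is high in those labelled FX11 and IL-1β plus FX11 (126 and 99.4 CPM).

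Other genes of these pathways were examined as lists written with earlier results of these data known, so that their direction is a description. Among 20 tested genes of NF-κB feedback, IL-1β raised 14 and lowered 3 in the 12 GFP libraries, with a median log2 fold change of 0.62 against -0.01 over all genes. For this and every list below, the background over all genes was 28.0% raised and 28.3% lowered by IL-1β. With Cre under IL-1β, 16.9% of all genes rose and 17.0% fell in LDHA flox cells, 25.0% and 23.4% in NAMPT flox cells, and 8.16% and 9.2% in NFKBIZ flox cells. The genes raised by IL-1β included Bcl3 (log2 fold change 3.90, SE 0.12), a nuclear IκB protein, Irak3 (2.87, SE 0.07), an inhibitory kinase homologue, Nfkbia (2.48, SE 0.07), which encodes IκBα, and Socs3 (1.52, SE 0.04), a cytokine signalling inhibitor. In this list, 9 of 21 rose with Cre under IL-1β and 6 fell in LDHA flox cells, 13 of 21 rose and 5 fell in NAMPT flox cells, and 4 of 20 rose and 5 fell in NFKBIZ flox cells. Irak3 fell in NFKBIZ flox cells with a log2 fold change of -2.46 (SE 0.16, adjusted p = 3.83e-07), from 44.5 and 50.2 CPM to 7.35 and 10.1 CPM. Nfkbie, which encodes IκBε, rose there (1.15, SE 0.20, adjusted p = 0.00187) and in LDHA flox cells (0.97, SE 0.23, adjusted p = 0.00886), and was at 4.14 and 5.29 CPM with GFP and at 11.4 and 11.8 CPM with Cre in NAMPT flox cells. Sigirr, 1 of the 13, was under 1 CPM in every GFP library. In NAMPT flox cells it passed the filter only through Cre libraries, so its rise there is a description. Socs1 was the gene of this list with the largest rise in NAMPT flox cells after the scarcely expressed Sigirr (1.66, SE 0.13, adjusted p = 1.72e-06). With GFP and Cre, respectively, it was at 11.8 and 15.3 against 23.0 and 26.3 CPM in LDHA flox cells. In NFKBIZ flox cells it was at 8.56 and 8.87 against 8.59 and 9.78 CPM. Il1rn, the IL-1 receptor antagonist, fell in LDHA flox cells (-1.30, SE 0.25, adjusted p = 0.00328). At low levels, Il1rn was also lower with Cre in NAMPT flox cells (3.58 and 5.25 against 1.59 and 1.71 CPM) and in NFKBIZ flox cells (1.15 and 2.04 against 0.435 and 0.730 CPM).

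The other MAPK phosphatases rose in part with IL-1β (7 of 11 higher, 2 lower, median 0.47), with Dusp4 (1.87, SE 0.10), Dusp6 (1.63, SE 0.06) and Dusp5 (1.60, SE 0.11) higher and Dusp14 lower by a log2 fold change of -1.03 (SE 0.08). With Cre under IL-1β, 7 of 12 rose and none fell in LDHA flox cells, and 8 rose and 2 fell in NAMPT flox cells, where Dusp2 went from 0.494 and 0.601 CPM with GFP to 12.2 and 12.6 CPM with Cre (4.49, SE 0.39, adjusted p = 4.01e-06). Dusp2 rose in LDHA flox cells by 4.00 (SE 0.47, adjusted p = 0.000145), from 0.188 and 0.482 CPM to 5.06 and 6.38 CPM. It is in both counts, but was under 1 CPM in every GFP library. Dusp2 thus passed the filter in these lines only through Cre libraries, so its rises and their p-values are a description. In NFKBIZ flox cells 3 of 11 rose and 3 fell, with Dusp4 lower by a log2 fold change of -1.24 (SE 0.24, adjusted p = 0.00329) and Dusp5 by -1.08 (SE 0.20, adjusted p = 0.00218).

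Of 11 tested Regnase, Roquin and TTP relatives, IL-1β raised 3 and lowered 2, not above the background of all genes (5 and 2 with RLE scaling), led by Arid5a (0.85, SE 0.07), which encodes an RNA-binding protein that opposes Regnase-1. Rc3h2, the paralogue of Rc3h1, was lower by a log2 fold change of -0.28 (SE 0.05). With Cre under IL-1β, Arid5a was the 1 gene of this list called in NFKBIZ flox cells, with a log2 fold change of -0.99 (SE 0.11, adjusted p = 4.75e-05). In LDHA flox cells 4 fell and none rose, and in NAMPT flox cells 6 fell and 1 rose. Zc3h12b was the lowest of these by fold in both lines (-0.86, SE 0.27, and -1.68, SE 0.23), and Tia1, which encodes a translational silencer, was lower by -0.51 (SE 0.09) and -0.70 (SE 0.10).

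The deadenylation, decapping and decay machinery had 33 tested genes, of which IL-1β raised 11 and lowered 5 with a median log2 fold change of 0.05, near the background for rises and under it for falls. Btg1 and Btg2, which stimulate deadenylation, led these with 0.66 (SE 0.05) and 0.42 (SE 0.05). With Cre under IL-1β they moved apart, Btg1 lower by -0.86 (SE 0.10) and Btg2 higher by 0.72 (SE 0.08) in LDHA flox cells, and by -0.93 (SE 0.10) and 0.77 (SE 0.11) in NAMPT flox cells. In all, 4 of 33 rose and 7 fell in LDHA flox cells, 6 rose and 9 fell in NAMPT flox cells, and 3 fell and none rose in NFKBIZ flox cells, Btg1 (-0.47, SE 0.10) and Lsm1 (-0.52, SE 0.15) among them.

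Short-lived transcripts that the decay factors are known to target formed the last list. Of the 20 genes of this list, 17 passed the filter on low counts and rose with IL-1β, with a median log2 fold change of 3.71. A gene hardly expressed without IL-1β could pass that filter through the IL-1β libraries, so this count is a description. The list was led by Cxcl1 (9.02, SE 0.13), from a median of 0.765 CPM to 401 CPM, Cxcl2 (8.20, SE 0.12), Cxcl3 (7.67, SE 0.20) and Lcn2 (7.21, SE 0.12). With Cre under IL-1β, 14 of 18 fell and none rose in NFKBIZ flox cells (median -2.58 against -0.01 over all genes), with Il6 at 33.3 and 33.6 CPM with GFP and at 0.645 and 1.00 CPM with Cre (-5.36, SE 0.25, adjusted p = 1.95e-08). The list holds Nfkbiz, the gene targeted in NFKBIZ flox cells, whose fall there was set by the design. Genes could also pass the filter here through the GFP libraries with IL-1β or through Cre libraries, so the Cre counts are a description too. In the other lines, 10 fell and 2 rose in LDHA flox cells, and in NAMPT flox cells 11 fell and 2 rose. Tnf was among those that rose, by 2.63 (SE 0.39, adjusted p = 0.000624) in LDHA flox and 3.93 (SE 0.41, adjusted p = 1.85e-05) in NAMPT flox cells, from 0.564 and 0.615 CPM to 3.08 and 4.22 CPM and from 0.247 and 0.601 CPM to 6.58 and 7.05 CPM. In both lines Tnf was under 1 CPM in every GFP library, so it passed the filter only through Cre libraries. Its rises and their p-values are thus a description. Beside these changes the chondrocyte markers fell too, 8 of 9 in LDHA flox and 7 of 9 in NAMPT flox cells, against 1 of 9 in NFKBIZ flox cells where 1 other rose, and their part in the result was not tested.

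Genes with the pattern most like that of Tnfaip3, Zc3h12a and Dusp1 were looked for among 13919 genes by the root mean square difference of centred log2 levels over the 16 condition means, which share libraries and their set. Tnfaip3 was closest to Nfkbia (difference 0.30), Gdnf (0.32) and Tnfrsf9 (0.34), against a variation of 1.08 of its own. Zc3h12a was closest to Bcl3 (0.40), Ch25h (0.43) and Gm43302 (0.51), against 1.83 of its own. Dusp1 was closest to Efnb3 (0.22), Gm5844 (0.23) and Tfap2a (0.25), against 0.57 of its own.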

How the data were processed

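Primary mouse chondrocytes were sequenced in 32 libraries of 16 conditions, each taken from its sample label. The authors aligned reads to the mouse genome (GRCm38) using STAR, and featureCounts gave the number of unambiguous, uniquely placed reads per gene. Versions differ between sources, and the use of strand is not stated. The deposited counts are whole numbers without normalization. The deposited CPM equal the count scaled to the library's total and the deposited RPKM divide this by gene length, and neither entered a test. GENCODE M21 (GRCm38) named 40340 of the 41388 genes.

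Counts were fitted with edgeR 4.0.16 in R 4.3.3 (quasi-likelihood, TMM, two-sided) over the 8 libraries of each line, the 12 GFP libraries or, between lines, 24 libraries, on genes above 1 CPM in at least 1 library (5 of the 12 GFP libraries), with 355 ribosomal RNA genes left out. A gene was called at an adjusted p of 0.05 or less over all genes tested. DESeq2 1.42.0, limma 3.58.1 (voomWithQualityWeights), RLE scaling, no filter, library set 2 alone, a replicate block and each library left out were alternatives. WT cells without the libraries of set 2 labelled FX11 and IL-1β, and the comparison between lines in set 2 alone, were alternatives chosen after seeing the data. Simulated 2-fold changes of 200 genes gave 198 recovered and 7 false calls among 14094 genes in the 12 GFP libraries, 155 recovered and 9 false calls among 15324 genes for Cre under IL-1β in LDHA flox cells, and 127 recovered and 6 false calls among 15284 genes for the interaction there. The changed genes were drawn from the better-counted genes, all other genes were left unchanged, and libraries were simulated as independent. These rates therefore do not cover scarce genes such as Tnip3 or libraries that vary together by set. Library totals ran from 15830658 to 39959888, so that 3 counts, the floor, lie far below 1 CPM, and the spread between 2 libraries limits precision. Counting floors cover counting error only.

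The 10 genes and all lists were chosen with earlier results of these data known. Named besides them were, from each list, up to 4 called genes with the largest fold change for IL-1β and up to 2 for each Cre comparison, the 3 targeted genes, and the 3 genes closest to Tnfaip3, Zc3h12a and Dusp1 among those above 1 CPM in at least 16 libraries. Mmp3 was named after its values were seen.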

Additional observations from a re-analysis of the deposited data

Results flagged for a closer look

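One value stood far from the rest of its group. Zc3h12c was at 15.2 CPM in 1 of the 6 GFP libraries with IL-1β, a library of NFKBIZ flox cells, and its gap to the next library was 0.653 of the range of the group, above the limit of Dixon's test for 6 values. The test was made on 20 groups, and chance gives about 1 in 20.

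The Cre effect under IL-1β differed between NFKBIZ flox cells and the mean of LDHA flox and NAMPT flox cells for 4 genes by edgeR's test of that difference, which was -1.079 for Zc3h12a, -0.728 for Tnfaip3, -1.064 for Tnip1 and 0.585 for Zfp36l2 on the log2 scale. Among the 16 libraries of set 2 alone, edgeR still called the first 3 but not Zfp36l2 (0.476, adjusted p = 0.0977).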

How the results depend on the processing

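The count of 8 genes raised by IL-1β in the 12 GFP libraries was 8 with RLE, with no filter, with DESeq2, with voom, with the replicate block and in set 2 alone, and ran from 8 to 9 with single libraries left out. Leaving out single libraries moved the genes called for Cre under IL-1β from 5 to between 2 and 6 in LDHA flox cells, from 6 to between 2 and 6 in NAMPT flox cells and from 5 to between 2 and 5 in NFKBIZ flox cells. Under IL-1β, the count was 2 without the GFP or the Cre library of set 1 in LDHA flox cells, 3 without the Cre library of set 1 and 2 without the GFP library of set 2 in NAMPT flox cells, and 2 without either GFP library or 1 of the Cre libraries in NFKBIZ flox cells. The interaction counts ran from 1 to 2, from 1 to 4 and from 1 to 3, respectively, with fewer samples in each fit. The interaction count in LDHA flox cells was 4 with no filter, 2 with DESeq2, 2 with voom and 4 with the replicate block, against 1, and the cause was not tested. The titles give no replicate numbers, so the block used the library set (accession order in NFKBIZ flox cells), and it is not known to pair the samples. Deviations of libraries of one set correlated at 0.405 to 0.647 in LDHA flox and 0.431 to 0.581 in NAMPT flox cells, at -0.240 to 0.724 in WT cells and at -0.304 to 0.103 in NFKBIZ flox cells. With the block, genes called over all genes went from 1825 to 3374 (LDHA flox) and from 3552 to 5648 (NAMPT flox) for the interaction. The block also gave the call to the LDHA flox interactions of Zc3h12a (adjusted p = 0.0251), Zfp36l1 (adjusted p = 0.00341) and Dusp1 (adjusted p = 0.0106), and ended the IL-1β calls of Rc3h1 in NFKBIZ flox cells.

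Of 1511 alternative values for 114 log2 fold changes of the 10 genes, 1377 kept direction and call, 105 lost the call, 24 gained it and 5 changed sign. The changes of sign were in values never called, with single libraries left out, which gave Zfp36l2 for IL-1β with GFP in LDHA flox cells -0.050 to 0.080, Zfp36l2 for Cre under IL-1β there -0.120 to 0.076, and Dusp1 for IL-1β plus FX11 in WT cells -0.582 to 1.20.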
